A study of Homo sapiens with 6 samples.

Results

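The nuclear-encoded subunit genes of oxidative phosphorylation were taken by symbol from a table of pooled gene expression in MCF10A cells, a non-tumorigenic human breast epithelial line. Symbols beginning with NDUFA, NDUFB, NDUFC, NDUFS or NDUFV and a number, SDHA to SDHD, UQCR, COX4 to COX8, or ATP5 and a letter were kept, which gave 88 of 26822 named genes. The study depleted PAX9, a paired-box transcription factor, to ask which mRNAs depend on it. Its 2 groups of 3 samples were cells transfected with a non-targeting siRNA (siNT) and cells transfected with a pool of siRNAs against PAX9 (siPAX9). Both groups received 30 nM siRNA by reverse transfection with a lipid reagent and were harvested after 72 h, so the controls carried siRNA and transfection reagent as well. Each group was 1 cell line and, for PAX9, 1 siRNA pool. The table holds 1 FPKM value per gene and group (fragments scaled to transcript length and library size), made by the authors from the 3 samples together, so every value below is the authors' pooled value with no replicate error in the columns used here, and no test was run. A change is log2 of FPKM in siPAX9 over FPKM in siNT.

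Oxidative phosphorylation takes place in the inner mitochondrial membrane. Complex I oxidises NADH and complex II oxidises succinate, complex III passes the electrons on to cytochrome c, complex IV reduces oxygen, and complex V, the ATP synthase, uses the proton gradient to make ATP. The enzymes mix subunits made from nuclear genes with a few made from mitochondrial DNA, so both genomes have to supply parts of the same machines. The mitochondrially encoded subunits were not analysed here.

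PAX9 itself was at 2.80 FPKM in siNT and 0.325 FPKM in siPAX9, 11.6% of the control, at a locus that also spans SLC25A21. The basal epithelial keratins KRT5 (1558 and 1807 FPKM in siNT and siPAX9) and KRT17 (1718 and 2088 FPKM) were abundant in both groups, and the leukocyte marker PTPRC and the hepatocyte marker ALB were below 0.1 FPKM in both. All 7 epithelial and basal markers passed 1 FPKM in both groups. Lower in siPAX9 were EPCAM (34.3 and 16.7 FPKM), KRT18 (212 and 119 FPKM) and TP63 (35.4 and 25.3 FPKM), and higher were KRT14 (31.4 and 40.9 FPKM) and CDH1 (45.3 and 124 FPKM). Of the 5 markers of other cell types, PECAM1 of endothelium (2.58 and 0.495 FPKM) and COL1A1 of fibroblasts (0.454 and 4.13 FPKM) reached a mean of 1 FPKM, and MYH11 of smooth muscle was at 0.161 and 0.187 FPKM. In RNA of whole cultures, fewer cells of a type and less RNA per cell cannot be told apart. Of 13145 named genes with a mean of at least 1 FPKM and values above 0 in both groups, 55.4% had a change below 0, and their median change was -0.07 on the log2 scale. The number of reads behind each value is not in the table.

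Of the 88 genes, 82 passed the same minimum, and 77 of these (93.9%) differed by less than 1.5-fold between siNT and siPAX9. Among all named genes 70.2% did so, and among the 1559 named genes with a mean of at least 50 FPKM, a level that 62 of the 82 reached, 64.7%. The 82 changes ran from -1.01 to 0.27 with a median of -0.14 and a middle range of -0.32 to -0.03 on the log2 scale. A change below 0 was found in 65 of the 82 (79.3%), beside 55.4% of all named genes and 69.3% of those with a mean of at least 50 FPKM. The same shares stand beside the counts below 0 given later for each complex and list. After centring on the median of all named genes, 55 of the 82 were below 0, beside 6572 of the 13145 and 1011 of the 1559 named genes. That centre comes from genes of mostly lower level. The middle 50% of the 82 by mean level spanned 51.8 to 136 FPKM. The 1004 named genes at this level had a median change of -0.22, and 68.2% of them were below 0 before centring. At least 2-fold lower in siPAX9 was 1 gene, ATP5A1, against a background of 6.57% of all named genes (8.4% of those with a mean of at least 50 FPKM), and on centring it came to -0.94 and no gene was 2-fold lower. None was at least 2-fold higher, against a background of 6.37% (3.91% of those with a mean of at least 50 FPKM). At least 1.5-fold lower were 5 genes, namely ATP5A1, ATP5G2, COX7A2L, ATP5G1 and ATP5D, against a background of 16.5% (26% of genes with a mean of at least 50 FPKM), and none was 1.5-fold higher, against 13.3% (9.24%). FPKM in siPAX9 lay within 10% of siNT for 38 genes, but the share of all named genes within 10% was not computed.

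The 5 highest mean levels belonged to COX7C, ATP5B, COX4I1, UQCRHL and COX8A. COX7C, a small membrane subunit of complex IV, was at 698 FPKM in siNT and 542 FPKM in siPAX9. ATP5B, the catalytic beta subunit of the ATP synthase, was at 451 and 410 FPKM. COX4I1, the widely expressed isoform of complex IV subunit 4, was at 467 and 386 FPKM. All 3 were lower in siPAX9, by less than 1.5-fold. ATP5S had the lowest level of the 82 genes in siNT, at 3.44 FPKM.

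**Figure D1:**
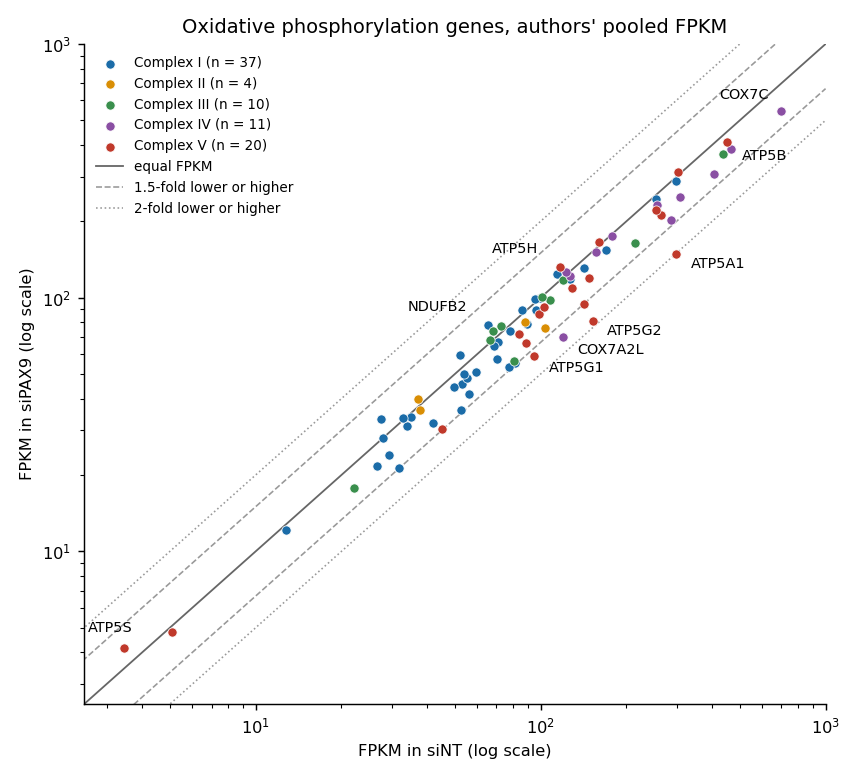
FPKM in siPAX9 (y axis, log scale) against FPKM in siNT (x axis, log scale) for the 82 genes with a mean of at least 1 FPKM, 1 point per gene, coloured by complex; each value is the authors' pooled value of 3 samples. The points follow the line of equal FPKM, 77 lie between the dashed 1.5-fold lines, and ATP5A1 lies on the dotted 2-fold line.

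The ATP synthase held the genes with the lowest values relative to siNT. Complex V had 20 genes past the minimum, 16 of them below 0, with a median change of -0.23 and a range of -1.01 to 0.27 on the log2 scale. The F1 head, where ATP is made, was lower in siPAX9 for 5 of 5 genes, beside 72.3% of named genes with a mean of at least 100 FPKM. ATP5A1, its alpha subunit (hg19, chr18:43664110-43684199), was at 299 FPKM in siNT and 149 FPKM in siPAX9, 49.8% of siNT, a log2 change of -1.01. ATP5D, the delta subunit of the central stalk (chr19:1241749-1244983), was at 142 and 94.6 FPKM (-0.59). ATP5C1, the gamma subunit that turns inside the head, was at 148 and 120 FPKM (-0.30). ATP5B, which alternates with ATP5A1 around the head in equal number, was at -0.14 on the log2 scale. The ratio of ATP5A1 to ATP5B, both in FPKM, was 0.663 in siNT and 0.363 in siPAX9. ATP5E, the small epsilon subunit, was at 255 and 221 FPKM (-0.20), at a locus shared with PRELID3B and the readthrough SLMO2-ATP5E, so its value may hold fragments of these genes.

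The membrane part and stalk of complex V had 10 genes, 8 of them below 0, with a median log2 change of -0.23. Its rotating ring is built from the c subunit, for which 3 genes (ATP5G1, ATP5G2 and ATP5G3) encode the same mature protein behind different import sequences. ATP5G2 (chr12:54058944-54070512) was at 152 FPKM in siNT and 81.2 FPKM in siPAX9 (-0.91), and ATP5G1 (chr17:46950700-47006422) was at 95.1 and 59.1 FPKM (-0.69). ATP5G3 was at 84.0 and 72.0 FPKM (-0.22), so all 3 c-subunit genes were lower in siPAX9 and ATP5G3 was the least so. Their summed level was 331 FPKM in siNT and 212 FPKM in siPAX9 (-0.64 on the log2 scale). ATP5G2 made up 46.0% of that sum in siNT and 38.2% in siPAX9, ATP5G1 28.7% and 27.8%, and ATP5G3 25.3% and 33.9%. ATP5F1, subunit b of the peripheral stalk, was at 88.5 and 66.6 FPKM (-0.41). The subunits at the other end of the list were ATP5H, subunit d of the peripheral stalk, at 117 and 132 FPKM (0.17), and ATP5I, subunit e, at 160 and 166 FPKM (0.05). ATP5J2, subunit f, shares 1 row with PTCD1 and with the readthrough ATP5J2-PTCD1, which the symbol rule takes as a gene of its own, and this row was at 264 and 212 FPKM (-0.32). ATP5O, ATP5L and ATP5J lay between -0.24 and -0.16.

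**Figure D2:**
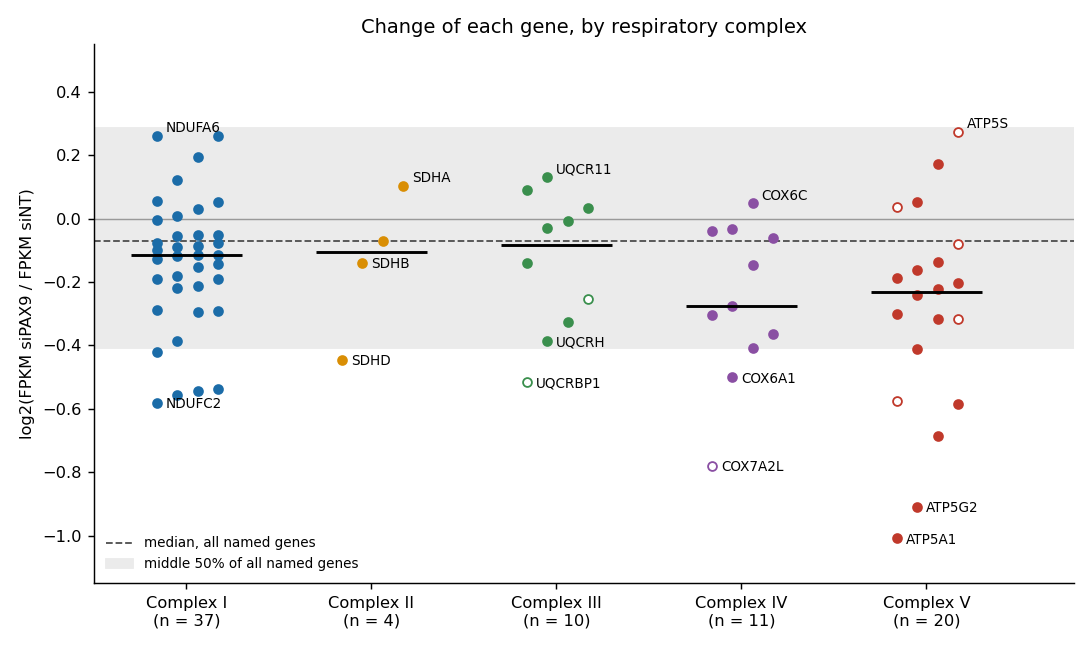
Log2 change, siPAX9 over siNT (y axis), of each of the 82 genes by complex, 1 point per gene; black bars are medians, the dashed line is the median of all named genes (-0.07), the grey band is their middle 50%, and open points are symbols that do not stand for an established subunit. Most points lie inside the band, and ATP5A1 at -1.01 and ATP5G2 at -0.91 lie farthest below it.

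The ATP5 symbols also took 5 that do not stand for an established subunit, ATP5J2-PTCD1 among them. ATP5SL, a protein named after the coupling factor and known for a role in complex I assembly, was at 45.2 and 30.3 FPKM (-0.57). ATP5S, factor B, was at 3.44 and 4.15 FPKM (0.27), the highest change of all 82. ATP5L2 was at 5.08 and 4.81 FPKM, and ATP5EP2 is described with its parent gene below. With the 15 established subunits alone, 13 were below 0 and the median was -0.24.

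The promoters of the genes farthest below siNT are shown because a transcription factor was depleted. RefSeq sequence of 250 bases before to 50 after the transcription start (GRCh38.p14) was matched for 68 of the 88 genes, 62 of them established subunits with a mean of at least 1 FPKM. Capitals mark letters of the GC box GGGCGGG, the NRF1 core GCATGCG, the ETS-family core CCGGAAG, the YY1 core ATGGCGG and GCGTGAC, which is shared by PAX binding sequences, each searched on both strands. ATP5A1 is on the minus strand at chr18:46104178-46104477 and ATP5G2 on the minus strand at chr12:53676034-53676333, and both are printed 5′ to 3′ in the direction of transcription.
ATP5A1: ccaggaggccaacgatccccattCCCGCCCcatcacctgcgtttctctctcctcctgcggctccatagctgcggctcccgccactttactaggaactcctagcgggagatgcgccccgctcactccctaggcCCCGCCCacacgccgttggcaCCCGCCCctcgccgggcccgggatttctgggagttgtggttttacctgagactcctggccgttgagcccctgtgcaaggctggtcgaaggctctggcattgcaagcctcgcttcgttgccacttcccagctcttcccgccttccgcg
ATP5G2: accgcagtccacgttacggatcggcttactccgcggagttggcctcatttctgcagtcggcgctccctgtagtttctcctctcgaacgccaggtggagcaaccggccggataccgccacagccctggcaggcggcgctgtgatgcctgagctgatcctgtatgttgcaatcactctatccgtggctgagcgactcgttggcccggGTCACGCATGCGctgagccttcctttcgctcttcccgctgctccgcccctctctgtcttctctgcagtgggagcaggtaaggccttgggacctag
ATP5A1 held 3 GC boxes, at -227, -118 and -97 from the start, and none of the other letters. ATP5G2 held GCGTGAC on the reverse strand at -45 overlapping NRF1 letters at -41 and -40, which is the run of capitals.

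Across the 62 subunit promoters, ETS-family letters were present in 19 (30.6%, beside 10.7% of all 27305 promoters and 14.2% of the 15843 promoters of protein-coding genes), YY1 letters in 19 (30.6%, beside 5.72% and 7.63%) and NRF1 letters in 13 (21.0%, beside 4.13% and 5.14%). At least 1 of these 3 was present in 35 (56.5%, beside 18.0% and 23.6%). The 62 subunits were limited to genes expressed in these cells and the background promoters were not, so the sets are unlike. The factors that read these letters, GABPA, YY1 and NRF1, are known regulators of respiratory genes. GC boxes were present in 17 (27.4%, beside 32.9% and 44.4%), and GCGTGAC in 5 (8.06%, beside 2.61% and 3.17%). The median log2 change was -0.14 with ETS-family letters and -0.14 without, -0.16 and -0.14 for NRF1, -0.15 and -0.14 for YY1, and -0.13 and -0.15 for GCGTGAC. The medians with and without a motif thus lay within a narrow range for these 4 motifs, and for the GC box they were -0.18 and -0.14. A match is a description of letters and not a binding site, and letters absent from this window may lie outside it.

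Complex I, the entry point for NADH, was the largest group with 37 genes, of which 29 were below 0, and its median log2 change was -0.12 with a range of -0.58 to 0.26. The nuclear core subunits, which carry the flavin and the iron-sulphur clusters, were below 0 for 6 of 7 genes with a median of -0.19. NDUFV2, an iron-sulphur subunit of the NADH-binding tip, was at 77.7 FPKM in siNT and 53.3 FPKM in siPAX9 (-0.54). NDUFS7, an iron-sulphur subunit close to the quinone site, was at 52.5 and 36.2 FPKM (-0.54). NDUFS3 was at 55.2 and 48.3 FPKM (-0.19). These 3 were lower in siPAX9, NDUFV2 and NDUFS7 by close to 1.5-fold. NDUFS8 was at 49.5 and 44.5 FPKM (-0.15), NDUFV1, the flavin-binding subunit, at 68.5 and 64.6 FPKM (-0.09), and NDUFS1, the largest subunit, at 32.8 and 33.5 FPKM (0.03). The ratio of NDUFS1 to NDUFS7 in FPKM was 0.625 in siNT and 0.926 in siPAX9.

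The 20 accessory subunits of the membrane arm had a median log2 change of -0.12, with 15 below 0. The lowest was NDUFC2 (chr11:77726761-77791265) at 31.8 and 21.3 FPKM (-0.58), at a locus shared with KCTD14 and their readthrough. NDUFB3 was at 55.9 and 41.8 FPKM (-0.42), and NDUFB6 was at 41.8 and 31.9 FPKM (-0.39). At the other end, NDUFB2 was at 65.1 and 78.0 FPKM (0.26), NDUFA8 at 52.1 and 59.6 FPKM (0.19), and NDUFB4 at 114 and 124 FPKM (0.12). NDUFS5 and NDUFB9, the most abundant transcripts of complex I, were nearly level at 298 and 287 FPKM and at 255 and 246 FPKM. The 9 accessory subunits of the peripheral arm had a median of -0.08, with 7 below 0. Among them NDUFS4, a subunit known as a Leigh syndrome gene, was at 81.2 and 55.2 FPKM (-0.56), NDUFA9 was at 29.3 and 23.9 FPKM (-0.29), and NDUFA6 was at 27.6 and 33.1 FPKM (0.26). NDUFV3 was level at 28.0 and 27.9 FPKM. NDUFA4, which the symbol places in complex I and which is now known as a complex IV subunit, was at 35.1 and 33.8 FPKM (-0.06).

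Complex II, which is also succinate dehydrogenase of the TCA cycle, is wholly nuclear-encoded. Its catalytic pair differed little from siNT: SDHA, the flavoprotein, was at 37.2 and 39.9 FPKM (0.10), and SDHB, the iron-sulphur protein, was at 88.2 and 80.1 FPKM (-0.14). Of the membrane anchors, SDHC was at 37.9 and 36.1 FPKM (-0.07) and SDHD at 103 and 75.9 FPKM (-0.45). SDHD was thus the lowest of the 4 relative to siNT, and the median of the complex was -0.10. The SDHB promoter (minus strand, chr1:17053983-17054282, GRCh38.p14) is shown as 1 of 4 that hold ETS-family, NRF1 and YY1 letters together, beside SDHD, COX6A1 and ATP5J. The capitals mark NRF1 letters at -200, ETS-family letters at -128 and YY1 letters at 14.
SDHB: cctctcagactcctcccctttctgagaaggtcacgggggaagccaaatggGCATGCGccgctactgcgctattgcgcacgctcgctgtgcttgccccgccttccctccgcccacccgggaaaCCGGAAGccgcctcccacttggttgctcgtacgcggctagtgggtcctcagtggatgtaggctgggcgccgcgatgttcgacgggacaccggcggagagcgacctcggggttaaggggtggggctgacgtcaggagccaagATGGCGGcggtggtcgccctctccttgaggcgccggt

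Complex III had 10 rows past the minimum, 7 of them below 0, with a median log2 change of -0.08 and a range of -0.52 to 0.13. Its nuclear catalytic subunit UQCRFS1, the Rieske iron-sulphur protein, was at 108 FPKM in siNT and 97.7 FPKM in siPAX9 (-0.14). The large core proteins UQCRC1, at 120 and 117 FPKM (-0.03), and UQCRC2, at 72.4 and 77.0 FPKM (0.09), were close to siNT. The small subunits UQCRQ (101 and 100 FPKM), UQCR10 (66.5 and 68.0 FPKM) and UQCR11 (67.9 and 74.2 FPKM) lay between -0.01 and 0.13. UQCRB, a small subunit near the quinone site, was at 22.2 and 17.7 FPKM (-0.32). UQCRH, the acidic hinge protein that assists cytochrome c docking, was at 214 and 164 FPKM (-0.39), the lowest of the established subunits of this complex. The remaining rows were copies of these genes, UQCRHL at 438 and 368 FPKM (-0.25) and UQCRBP1 at 80.8 and 56.5 FPKM (-0.52). With both copies left out, the median of the 8 established subunits was -0.02.

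Complex IV, cytochrome c oxidase, had 11 of its 17 symbols past the minimum, 10 of them below 0, with a median log2 change of -0.28 and a range of -0.78 to 0.05. COX7A2L (chr2:42562701-42596097), a protein of respiratory supercomplexes that is not counted as a subunit of the enzyme itself, was at 120 and 69.8 FPKM (-0.78). COX6A1, the widely expressed isoform of subunit 6A, was at 286 and 202 FPKM (-0.50), COX8A was at 408 and 307 FPKM (-0.41), and COX5B was at 309 and 250 FPKM (-0.30). These were the lowest of the complex relative to siNT, together with COX7C at -0.36. COX6C was at 123 and 127 FPKM (0.05), COX6B1, which faces the intermembrane space, at 179 and 175 FPKM (-0.03), and COX7A2 at 156 and 152 FPKM (-0.04). COX5A and COX7B lay at -0.06 and -0.15. The 10 established subunits had a median of -0.21, which was also the median with COX7A2L kept and NDUFA4 added.

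The other 6 genes of complex IV were tissue-restricted isoforms and did not reach the minimum. COX4I2, the lung isoform, COX6A2, the heart and muscle isoform, and COX7B2 were listed at 0 in both groups. COX7A1, another heart and muscle isoform, was at 0.186 and 0.362 FPKM, COX6B2 at 0.0829 and 0.0684 FPKM, and COX8C at 0.0416 and 0.185 FPKM. No fold is read from levels this low. The widely expressed partner of each isoform, from COX4I1 to COX8A, was above 100 FPKM in both groups.

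Some copies of these genes elsewhere in the genome had rows with high FPKM values. UQCRH and its single-exon copy UQCRHL are shown because the copy had the higher value, 2.05 times that of UQCRH in siNT and 2.24 times in siPAX9. The coding sequence of UQCRH (GRCh37, plus strand, 4 coding exons within chr1:46769439-46782253) and the matching stretch of UQCRHL (minus strand, chr1:16133872-16134144) are 273 bases long and identical at 98.5% of them, with the 4 differing bases in capitals.
UQCRH: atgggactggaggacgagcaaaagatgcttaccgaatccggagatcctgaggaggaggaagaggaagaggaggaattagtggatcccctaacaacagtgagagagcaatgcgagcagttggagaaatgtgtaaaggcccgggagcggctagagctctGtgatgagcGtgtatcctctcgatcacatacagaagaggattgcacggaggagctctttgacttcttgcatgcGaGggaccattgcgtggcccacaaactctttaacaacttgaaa
UQCRHL: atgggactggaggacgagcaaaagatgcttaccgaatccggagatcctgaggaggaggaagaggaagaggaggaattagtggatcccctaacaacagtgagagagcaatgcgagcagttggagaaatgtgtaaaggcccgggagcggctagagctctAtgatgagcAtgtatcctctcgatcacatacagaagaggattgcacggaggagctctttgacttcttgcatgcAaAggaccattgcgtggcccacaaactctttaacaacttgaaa
Of 198 windows of 76 bases in the UQCRH coding sequence, 82 occurred letter for letter in the copy. NDUFA4 (minus strand, 4 coding exons within chr7:10973266-10979684) and its processed pseudogene NDUFA4P1 (plus strand, chr1:108047825-108048067) differ at 6 of 243 bases, in capitals.
NDUFA4: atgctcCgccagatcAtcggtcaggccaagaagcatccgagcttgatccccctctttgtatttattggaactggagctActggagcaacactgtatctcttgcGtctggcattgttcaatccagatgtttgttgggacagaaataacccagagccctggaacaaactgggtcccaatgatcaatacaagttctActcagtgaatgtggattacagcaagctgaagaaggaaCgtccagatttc
NDUFA4P1: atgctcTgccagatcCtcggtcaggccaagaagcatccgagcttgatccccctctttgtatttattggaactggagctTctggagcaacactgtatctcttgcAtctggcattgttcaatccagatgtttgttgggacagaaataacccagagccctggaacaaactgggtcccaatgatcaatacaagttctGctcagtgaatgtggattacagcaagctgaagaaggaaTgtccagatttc
The row over NDUFA4P1 has no gene symbol and was at 804 FPKM in siNT and 796 FPKM in siPAX9, 22.9 times the level of NDUFA4 in siNT. ATP5E (minus strand, 2 coding exons within chr20:57605364-57607306) and ATP5EP2 (plus strand, chr13:28519397-28519549) differ at 6 of 153 bases, in capitals, and none of 78 windows of the ATP5E coding sequence occurred in the copy.
ATP5E: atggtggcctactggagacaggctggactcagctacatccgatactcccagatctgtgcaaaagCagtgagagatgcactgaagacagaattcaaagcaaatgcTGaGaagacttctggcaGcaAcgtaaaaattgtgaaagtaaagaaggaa
ATP5EP2: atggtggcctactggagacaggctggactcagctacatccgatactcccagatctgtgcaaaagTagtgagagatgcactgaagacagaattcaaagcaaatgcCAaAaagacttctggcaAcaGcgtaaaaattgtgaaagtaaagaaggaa
ATP5EP2 was at 304 and 312 FPKM (0.04), 1.19 times the level of ATP5E in siNT and 1.41 times in siPAX9. In each of these pairs the intronless copy was thus listed above the gene it derives from in both groups.

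The annotation (GENCODE on GRCh37) names 187 pseudogenes after 48 of the 88 genes. Only rows of at most 2000 bases with no symbol or with 1 of the 88 symbols were taken, which leaves out the long row of UQCRBP1. For 25 genes the table holds such short rows with a mean of at least 1 FPKM, over 38 of the 187 pseudogenes. They are 52 distinct rows of 87 to 1604 bases, 51 of them with no symbol. The row was above its parent gene in both groups for 40 of the 52. Rows over ATP5F1 pseudogenes reached 4203 FPKM in siNT, beside 88.5 FPKM for ATP5F1, and a row over COX4I1P1 was at 4469 and 4126 FPKM. FPKM is scaled to length, and the 52 rows are short, with a median of 193.5 bases. The row at 4203 FPKM has 123 bases. Such levels are therefore not like for like with those of full-length genes, and how much the scaling added was not tested. Of the 52 rows, 48 had a change within 0.5 log2 units of their parent's, and the median absolute difference was 0.13. Since most of the genes differed little from siNT, 34 rows also lay within 0.5 of the median change of all 82 genes, with a median absolute difference of 0.23. ATP5A1 had 7 such rows over several pseudogenes, at 22.2 to 350 FPKM in siNT, with changes from -1.68 to -0.65. ATP5G2 had 4 rows with changes from -0.90 to -0.65, and ATP5G1 had 4 with changes from -0.92 to -0.45. All 15 rows were thus lower in siPAX9, as their parents were. The row over SDHDP3 was at 1332 and 798 FPKM (-0.74), beside -0.45 for SDHD, and the row over UQCR10P1 was at 2124 and 3325 FPKM (0.65), beside 0.03 for UQCR10. The reads were aligned with Bowtie 2, which does not split a read over an intron, and in the median gene 32.1% of 76-base windows of the transcript cross an exon junction (0% in the 4 single-exon genes and 2.16% to 85.5% in the rest). How many fragments of each gene were placed on its copies was not tested, and the FPKM of a gene and its copies cannot be added up as independent transcripts. Exact copies of at least 1 window were found for 29 genes and for 58 none. Of these, 28 and 53 had a mean of at least 1 FPKM, with median changes of -0.17 and -0.14. The copied windows do not all stand for gene copies. NDUFA9 had them at 1913 sites, NDUFV3 at 191, NDUFS1 at 92 and ATP5A1 at 83. Those of ATP5A1 lay mostly in other genes or in unannotated sequence. COX6A1 had the largest share of copied windows (47.6%), followed by SDHC (45.3%) and SDHD (30.5%), and ATP5B and the c-subunit genes had none.

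**Figure D3:**
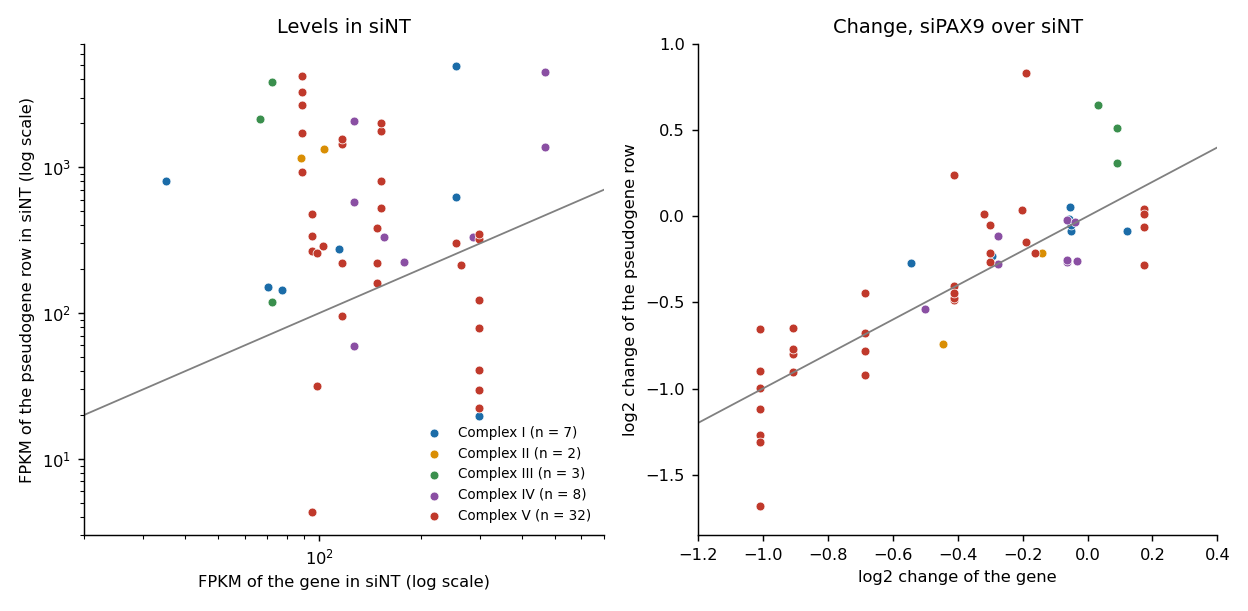
Left, FPKM in siNT of 52 rows over pseudogenes (y axis, log scale) against FPKM in siNT of the gene each is named after (x axis, log scale); right, their log2 changes, siPAX9 over siNT, with 1 point per row, coloured by complex, and the line of equal values in both panels. In siNT 41 of the 52 rows lie above the parent gene in FPKM, which is scaled to length, and 48 lie within 0.5 log2 units of it in change.

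The genes that build and feed the respiratory chain were described in the same way. Of 13 complex I assembly factors, 9 were below 0 with a median log2 change of -0.15, and 5 were at least 1.5-fold lower in siPAX9 (38.5%, beside 16.5% of all named genes). These were ECSIT at 33.3 and 18.5 FPKM (-0.85), in a row shared with ZNF653, NUBPL, which delivers iron-sulphur clusters, at 7.19 and 4.25 FPKM (-0.76), NDUFAF2 (-0.72), ACAD9 (-0.64) and NDUFAF6 (-0.64). NDUFAF5 was the highest at 0.14. No complex I subunit was 1.5-fold lower. Of 33 assembly factors of complexes II to V, 17 were below 0 with a median of -0.12, and 2 (6.06%) were at least 1.5-fold lower. The copper chaperones of complex IV stood at both ends of this list, SCO1 at 26.2 and 13.8 FPKM (-0.93) and SCO2 at 39.9 and 57.0 FPKM (0.51). The SCO2 row is shared with TYMP and ODF3B, so its value may hold fragments of these genes.

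Electron carriers and subunits whose symbols fall outside the rule gave 9 genes, 4 of them below 0, with a median of 0.15 on the log2 scale. CYC1, the cytochrome c1 subunit of complex III, was at 202 and 172 FPKM (-0.23), and CYCS, cytochrome c, was at 34.99 and 38.9 FPKM (0.15). C14orf2, a small ATP synthase subunit, was the lowest at -0.34, and ETFDH, which feeds electrons from fatty acid oxidation into the quinone pool, was the highest at 0.41. USMG5, another small ATP synthase subunit, was at 331 and 394 FPKM (0.25), in a row shared with MIR1307. ATPIF1, the inhibitor of the ATP synthase, was at 138 and 180 FPKM (0.38). ATP5A1 and the inhibitor that binds the F1 head thus lay on opposite sides of 0.

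The 13 TCA cycle enzymes had 8 genes below 0 and a median of -0.18, from SUCLG2 at 43.4 and 26.2 FPKM (-0.73) to OGDH at 24.4 and 31.5 FPKM (0.37). The regulators of mitochondrial genes had 11 of 14 below 0 and a median of -0.26. TFB1M (-0.65), TFB2M at 39.3 and 25.03 FPKM (-0.65) and TFAM at 22.6 and 15.01 FPKM (-0.59), which act on mitochondrial rRNA and mitochondrial DNA transcription, were the 3 at least 1.5-fold lower (21.4%, beside 16.5% of all named genes), and ESRRA was the highest at 0.21. The factors that read the NRF1, ETS-family and YY1 letters lay close to siNT, NRF1 at 4.49 and 4.63 FPKM, GABPA at 11.7 and 10.5 FPKM, and YY1 at 43.6 and 44.1 FPKM. GABPB1, the partner subunit of GABPA, was lower in siPAX9, at 7.95 and 5.46 FPKM (-0.54). The coactivator PPARGC1A was below the minimum at 0.394 and 0.458 FPKM.

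Genes of the mitochondrial membranes and protein import were below 0 for 17 of 18, with a median of -0.37. Among named genes with a mean of at least 50 FPKM, 69.3% were below 0. SLC25A6, an ADP/ATP carrier that hands ATP from complex V to the cytosol, was the only 1 at least 2-fold lower, at 335 and 161 FPKM (-1.06), which is 5.56% of the list beside 6.57% of all named genes. Its paralog SLC25A5 was at 401 and 252 FPKM (-0.67). CHCHD3 was the highest at 0.07. Mitochondrial ribosomal protein genes, which serve the mitochondrially encoded subunits, were below 0 for 68 of 78 with a median of -0.34, and 4 (5.13%) were at least 2-fold lower, beside 6.57% of all named genes. Cytoplasmic ribosomal protein genes were below 0 for 78 of 80 with a median of -0.75, and 13 (16.3%) were at least 2-fold lower and 1 at least 2-fold higher, beside 6.57% and 6.37% of all named genes. Among named genes with a mean of at least 100 FPKM, 11.1% were at least 2-fold lower. All 3 lists had lower medians than the oxidative phosphorylation genes at -0.14, and none of these differences was tested.

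**Figure D4:**
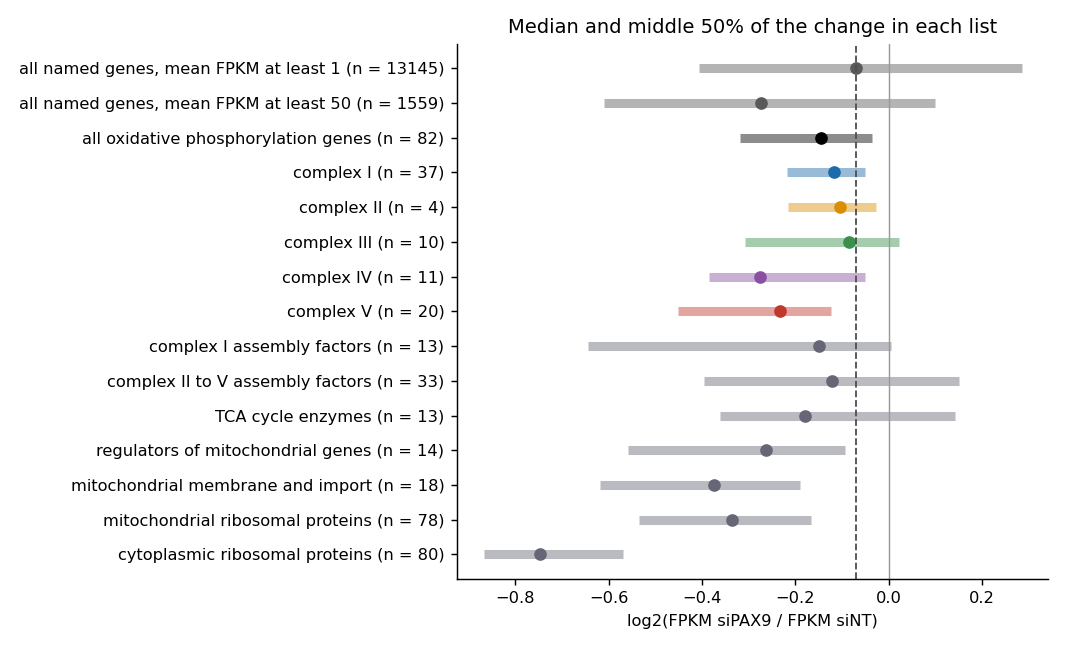
Median (point) and middle 50% (bar) of the log2 change, siPAX9 over siNT (x axis), of each list and of all named genes at a minimum mean of 1 or 50 FPKM; the dashed line is the median of all named genes. The oxidative phosphorylation genes sit at -0.14, above the mitochondrial ribosomal (-0.34) and cytoplasmic ribosomal (-0.75) protein genes and above all named genes with a mean of at least 50 FPKM (-0.27).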

How the data were processed

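The 6 samples, 3 transfected with siNT and 3 with siPAX9, were grouped by their labels. The authors prepared poly(A)+ libraries and ran Partek Flow, with Bowtie 2 as aligner of the single-end reads (genome hg19 of UCSC) and Cufflinks for transcript levels. The versions of Bowtie 2 and Cufflinks, strand handling and scaling between libraries are not given in the sources used here. The deposited table holds FPKM for 41656 loci, 1 value per group pooled over its 3 samples. These FPKM columns give neither the reads behind a value nor the spread between samples. The authors' columns of log2 fold change, test statistic, p-value and q-value were not used.

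For a symbol with several rows the row with the highest mean FPKM was used. Changes are log2(siPAX9/siNT) with no pseudocount for genes with a mean of at least 1 FPKM and both values above 0. The pooled values allow no test, and genes are described against all named genes. Coordinates are 1-based. Pseudogenes were taken by name and position from the GENCODE annotation of GRCh37, 76-base windows of the annotated transcripts were searched in that genome, and promoters came from RefSeq (GRCh38.p14).

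The members and lists were chosen with earlier results of these data known. The lists were assembly factors, carriers and subunits outside the symbol rule, TCA cycle enzymes, regulators, membrane and import genes, ribosomal protein genes and cell type markers. Values are given for members changed at least 2-fold, the 5 most abundant, the 3 lowest and 3 highest changes per complex, all of complexes II and III, the complex I core, the F1 head, tissue-restricted isoforms, symbols that are not subunits, shared loci and the largest changes of the other lists save the ribosomal protein genes, except for 1 gene that is not reported here. Further genes, the backgrounds by FPKM level, the pseudogene rows and the motifs were chosen after values were seen. Scripts (Python 3.11.15, pandas 2.3.3, numpy 2.4.6) were tested on simulated data. Alternatives were a pseudocount of 1, no minimum or 10 FPKM, summed rows, single-symbol rows, centring, a 1.5-fold threshold and established subunits alone.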

Additional observations from a re-analysis of the deposited data

How the results depend on the processing

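The medians of all genes and of each complex stayed below 0 under each single alternative run, while the 8 established complex III subunits, when also centred, had a median of 0.05 and single genes near 0 changed sign on centring. With no minimum FPKM, 1 gene was at least 2-fold higher, COX8C, which is under 1 FPKM in both groups, and the complex IV median was -0.21. Centred on the median of all named genes, 0 genes were at least 2-fold lower, since ATP5A1 came to -0.94, 55 genes were below 0 in place of 65, NDUFA4, NDUFS5 and UQCRC1 for example coming to 0.015, 0.018 and 0.041, and the medians were -0.074 for all genes, -0.046 for complex I, -0.034 for complex II, -0.014 for complex III, -0.21 for complex IV and -0.16 for complex V. At a 1.5-fold threshold 5 genes were lower, of which ATP5D at 66.7% of siNT lay just past it and NDUFC2 at 66.8% just short of it. With a mean of at least 10 FPKM the medians were -0.15 for all genes and -0.27 for complex V. The complex I median was -0.11 with 1 added to each FPKM, with summed rows and with single-symbol rows, and the complex V median was -0.22 with single-symbol rows. With established subunits alone the medians were -0.019 for complex III, -0.21 for complex IV and -0.24 for complex V.

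No paired analysis was possible because the table holds 1 pooled FPKM per group, and leaving out each sample in turn was not run for the same reason. Small differences, such as those between complexes, have no error in the columns used here to be set against, and the reads behind each value are not in the table.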

Other observations

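The mitochondrial rRNAs, which are transcribed from the same mitochondrial DNA as the mitochondrially encoded subunits, were higher in siPAX9, opposite in direction to most nuclear subunit genes. RNR1, the small-subunit rRNA, was at 2300 FPKM in siNT and 3695 FPKM in siPAX9, a log2 change of 0.68, and RNR2, the large-subunit rRNA, was at 6369 and 10258 FPKM, a log2 change of 0.69. The libraries were selected for poly(A)+ RNA, and how much of each rRNA that step passed on was not tested.

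NDUFA1 had a further row over the same interval of chromosome X, at 7.67 and 13.6 FPKM (0.83), beside 170.0 and 154.0 FPKM (-0.14) for the row used. A row over the ATP5L pseudogene ATP5MGP3 was at 31.6 and 56.2 FPKM (0.83), while ATP5L itself was at 98.4 and 86.3 FPKM (-0.19).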
